A study of Caenorhabditis elegans with 21 samples.

Results

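Poly(A) mRNA of sorted 1-cell embryos of Caenorhabditis elegans was compared with poly(A) mRNA of whole worms of the mothers' strain, to describe by gene class which messages the zygote holds and which stay behind in the parent's body. The comparison uses 6 of the 21 libraries of the series, 3 of embryos and 3 of worms, chosen by their labels and not by any measured value. The embryos came from mothers labelled fem-1(hc17ts)/TX189(OMA-1::GFP) crossed to CB4856 fathers, were sorted by fluorescence (eFACS), and are labelled 24 °C. The worms, titled N2_background, have the same genotype label as those mothers and were also kept at 24 °C. Both groups therefore carry the fem-1 allele and the OMA-1::GFP transgene on the mothers' side, and reads of the transgene cannot be told apart from oma-1. The fem-1 allele is a temperature-sensitive mutation of a sex determination gene that leaves animals without sperm of their own when active. Neither sex nor age of the worms is labelled. Embryo mRNA includes whatever the CB4856 father delivered, since the deposited values are not split by allele. RiboMinus embryo libraries (rRNA-depleted, of the same cross, 3 libraries) are given beside the results. Together with 3 libraries of CB4856 whole worms, also labelled 24 °C, they enter the filter on low values and the estimate of the spread. Sperm libraries are used only beside single results.

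A zygote starts almost without transcription of its own. Its polarity, first divisions and early fate decisions run on mRNAs and proteins that the mother loaded into the oocyte, and RNA-binding proteins decide when and where the stored messages are translated. A whole adult worm adds to its germline the intestine, which makes yolk, and muscle, hypodermis and neurons, so a level relative to all reads of a worm is diluted by body mRNA, and fewer cells of a type and less RNA per cell cannot be told apart in such samples.

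Values are RPKM, read counts scaled to feature length and library depth, as the authors deposited them. Depth recovered from the steps of the RPKM values was 111.61, 106.29 and 136.11 M reads in embryos, against 33.91, 31.7 and 135.78 M reads in worms. The first 2 libraries of either group were about as far apart as repeated sampling of the same read pairs would set them. Their mean dispersion was 1.0 in embryos and 1.07 in worms, where 1 is sampling alone. They were counted as 1 sample, so each group has 2 samples. All dispersions were divided by 2, on the premise that both ends of a pair were counted. Of features with 1 to 10 reads, 56.1 to 80.5% per library had an even count, so this premise held only in part. Embryo replicate 3 stood well apart from the other embryo libraries, with a median dispersion of 29.72 against replicate 1, whereas worm replicate 3 differed from worm replicate 1 by a median dispersion of 0.56, close to the 0.45 between worm replicates 1 and 2. The mean dispersions against replicate 1 were 754.24 in embryos and 18.8 in worms, so some worm genes differed beyond read sampling. The p-values measure only a spread between samples, which may be technical. This spread was estimated jointly over 4 groups, the 2 compared with RiboMinus embryos and CB4856 worms, so it is not that of the embryos alone. Differences are log2 differences of RPKM + 1, embryos minus worms, from limma, and a gene was called at a Benjamini-Hochberg adjusted p under 0.05 and an absolute difference of at least 1, over 11041 genes tested.

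The tissue labels were checked against cell type markers. Of 7 germline and oocyte markers, all 7 were at 1 RPKM or more in both groups. They summed to 10800 to 12300 RPKM in embryos and 5270 to 5350 RPKM in worms, but did not move as one. The 3 that rose were cey-2, pos-1 and oma-2, and oma-1, glp-1, gld-1 and mex-5 were not called. Of these, mex-5 and gld-1 were lower in every embryo library, gld-1 with 110.5, 110.3 and 363.8 RPKM against 472.2, 468.5 and 475.3 RPKM in worms. The 6 intestine markers summed to 5.6 to 7.7 RPKM in embryos, against 15400 to 15500 RPKM in worms. The 4 muscle markers summed to 29.8 to 33.4 RPKM in embryos and 2470 to 2490 RPKM in worms, and the 3 hypodermis markers to 7.37 to 9.62 RPKM in embryos and 7060 to 7180 RPKM in worms. Intestine, muscle and hypodermis markers were thus far lower in embryos in sum, although dpy-7 of the hypodermis list rose. The 4 neuron markers summed to 415 to 474 RPKM in embryos against 134 to 138 RPKM in worms and did not move as one. snb-1, with 373.6, 375.8 and 271.8 RPKM in embryos against 81.68, 84.68 and 83.47 RPKM in worms, and unc-119, with 95.57, 94.69 and 140 RPKM in embryos against 22.68, 23.35 and 21.71 RPKM in worms, rose. egl-21 fell, with 2.72, 3.00 and 2.82 RPKM in embryos against 28.43, 28.68 and 28.96 RPKM in worms, and rab-3 was not called. The 47 sperm markers summed to 1.95 to 5.88 RPKM in embryos and 83.1 to 89.9 RPKM in worms, with none at a mean of 1 RPKM in embryos and 18 at 0. Much of the worm sum came from ssp-37, with 44.47, 44.43 and 42.56 RPKM in worms and 0 in embryos. The 7 markers of later embryos summed to 2.35 to 3.47 RPKM in embryos and 0.817 to 1.4 RPKM in worms, and med-1 and med-2, the first zygotic endoderm and mesoderm genes, were at 0 in every library of both groups.

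Of the genes tested, 3412 rose in embryos, 30.9% of all, and 2692 fell, 24.4% of all. The class counts below are to be read beside these shares. The median difference was 0.05, with quartiles of -1.02 and 1.41. This balance depends on the scale. Centring each library on genes with a mean of at least 5 RPKM in both groups, called shared-gene centring here, moved the median of all genes by -1.13, and 1456 genes were then called higher and 5653 lower, so that 20.5% of calls were rises, against 55.9% on the deposited scale. Class medians are therefore given on both scales wherever the sign depends on it.

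At a mean of 1 RPKM or more, 7455 named genes were detected in embryos and 9025 in worms, of which 6818 in both. Only 637 of these genes were at that level in embryos alone, against 2207 in worms alone. The asymmetry was larger for strong signals. Genes with 10 RPKM or more in one group and under 0.1 in the other numbered 2 with the signal in embryos and 173 with the signal in worms. At the top of the range the order turned, with 1747 genes at 100 RPKM or more in embryos and 906 in worms.

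**Figure D1:**
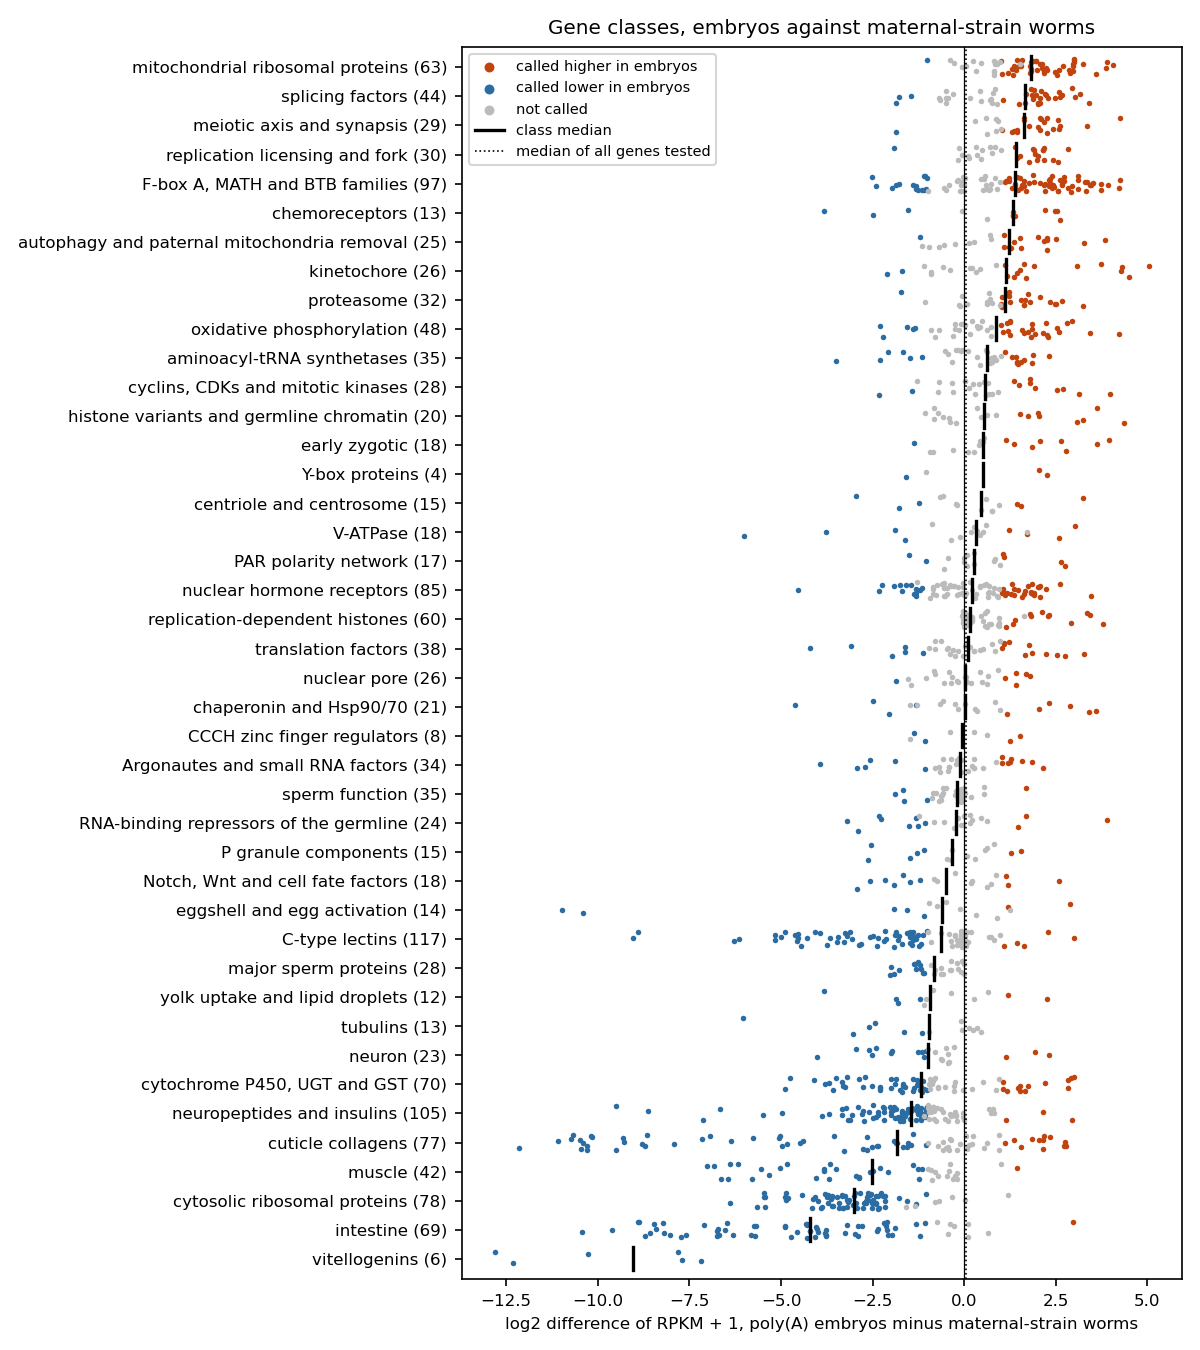
Each point is a gene tested, placed by its log2 difference of RPKM + 1 (poly(A) embryos minus maternal-strain worms) and coloured by its call; bars are class medians, the dotted line is the median of all genes tested (0.05), and numbers beside the class names count genes tested. Mitochondrial ribosomal proteins have the highest median (1.81), and vitellogenins (-9.05) the lowest.

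The embryo's mRNA pool was spread over more genes than the worm's. It took 315, 314 and 476 genes to hold 50% of the summed RPKM in embryos, against 136, 136 and 137 genes in worms. The most abundant embryo message was sip-1, a small heat shock protein, with 40590, 40830 and 34390 RPKM in embryos and 10780, 10840 and 10860 RPKM in worms, a difference of 1.79 ± 0.15 (SE; limma adjusted p = 9.53e-05). The most abundant worm message was eef-1A.1, the translation elongation factor that brings tRNA to the ribosome, with 5566, 5582 and 4687 RPKM in embryos against 15560, 15510 and 15590 RPKM in worms. eef-1A.1 has a near-identical copy in the genome, so its value is uncertain.

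Of the 100 most abundant embryo genes, 74 rose, 2 fell and 24 were not called, and only 1 encodes a ribosomal protein. Of the 100 most abundant worm genes, 81 fell in embryos, and 47 encode ribosomal proteins. Choice by level in embryos favours rises in the first list, and choice by level in worms favours falls in the second. The 2 lists share 18 genes. Among the leading embryo messages that rose were prdx-2, a peroxiredoxin, with 4752, 4757 and 3824 RPKM in embryos against 1549, 1543 and 1586 RPKM in worms, and cyn-7, a cyclophilin, with 6589, 6613 and 5786 RPKM in embryos against 2084, 2047 and 2071 RPKM in worms. The uncharacterised gene W05F2.3 had 8259, 8258 and 5367 RPKM in embryos and 1668, 1680 and 1702 RPKM in worms. In each of the 3 genes all embryo libraries lay above all worm libraries, as they did for 43.1% of all genes tested, while for 37.3% all embryo libraries lay below.

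Some of the most abundant embryo features differed widely between the embryo samples. The short X-linked feature F23A7.4 had 13130, 13190 and 1215 RPKM in embryos, against 775.8, 816.2 and 829.6 RPKM in worms, and was not called (2.3 ± 1.46, limma adjusted p = 0.213). Its neighbour in name F23A7.8 showed the same split, with 9327, 9345 and 1912 RPKM in embryos against 308, 312.5 and 323.4 RPKM in worms, and was called (3.73 ± 0.89, limma adjusted p = 0.0104). Their recovered lengths were 207 and 204 nucleotides.

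**Figure D2:**
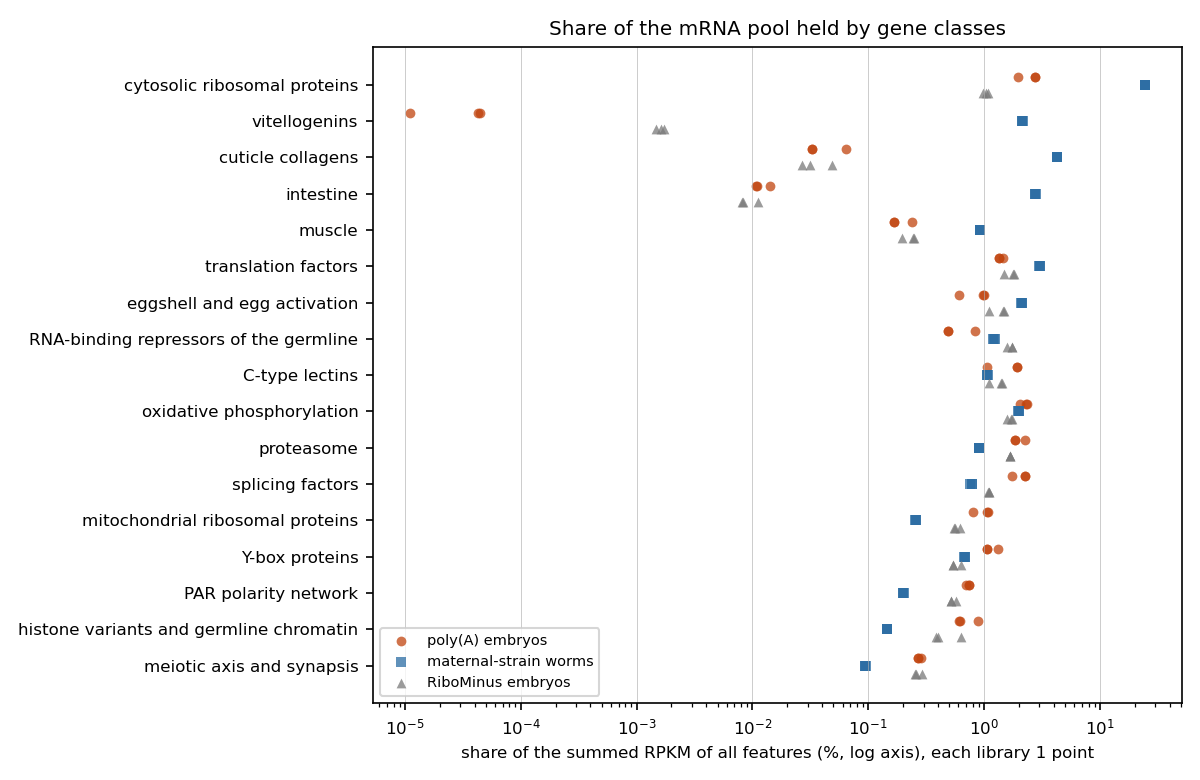
Each point is 1 library, placed by the percentage of its summed RPKM (log axis) held by the class; circles are poly(A) embryos, squares maternal-strain worms and triangles RiboMinus embryos. Cytosolic ribosomal proteins hold 1.97 to 2.74% in embryos and 24.4 to 24.6% in worms.

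RNA-binding regulators of stored messages did not move as one group. Among the 8 CCCH zinc finger regulators, which restrict translation to parts of the embryo, 2 rose and 2 fell, with a median of -0.07 (0.03 with median centring and 0.01 with RiboMinus embryos). The oocyte maturation factor oma-2 rose, with 1515, 1512 and 1759 RPKM in embryos against 571.3, 568.9 and 569.9 RPKM in worms. mex-1, needed for germline factors to stay in the posterior, fell, with 155.3, 155.3 and 409.6 RPKM in embryos against 658.2, 660.1 and 644.4 RPKM in worms. Embryo replicate 3 was the nearest of the 3 to the worms for mex-1, and RiboMinus embryos had 499.5 to 885 RPKM. Its partner in anterior-posterior patterning mex-5 had 310.3, 310.6 and 825.3 RPKM in embryos against 1420, 1417 and 1418 RPKM in worms and was not called (limma adjusted p = 0.0862).

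Of 24 other RNA-binding repressors of the germline, 3 rose and 8 fell, with a median of -0.22, and with RiboMinus embryos in place of poly(A) embryos 7 were called higher and 1 lower, with a median of 0.54. nos-2, a regulator of germ cell fate, rose most, with 367.9, 370.3 and 487.2 RPKM in embryos and 26.93, 27.66 and 28.18 RPKM in worms (3.89 ± 0.28, limma adjusted p = 5.90e-05). The other two that rose were fbf-1, a PUF protein that keeps germline stem cells, with a difference of 1.69, and mina-1, with 1.48. The 8 that fell included oocyte-stage repressors. lin-41, a TRIM-NHL protein that keeps growing oocytes from maturing early, had 32.76, 33.08 and 19.89 RPKM in embryos against 238.3, 239 and 245.2 RPKM in worms. RiboMinus embryos had 285.2, 273.2 and 135.2 RPKM of lin-41, and it was not called with them. The messenger ribonucleoprotein components car-1 and cgh-1 fell as well, car-1 with 433.8, 436.7 and 857.8 RPKM in embryos against 3053, 3036 and 3075 RPKM in worms, and cgh-1 with 390.7, 388.2 and 326.9 RPKM in embryos against 887.3, 879.7 and 900.9 RPKM in worms.

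The 4 Y-box proteins, RNA packaging proteins with a cold shock domain, divided by gene. cey-3 rose, with 2150, 2154 and 2709 RPKM in embryos against 505.3, 498.2 and 508.4 RPKM in worms, and cey-2 rose too, with 6420, 6384 and 6000 RPKM in embryos against 1500, 1488 and 1534 RPKM in worms. RiboMinus embryos had 1446, 1488 and 1560 RPKM of cey-2, a range that overlaps that of the worms. cey-1 fell, with 383.6, 382.7 and 408.7 RPKM in embryos against 1213, 1238 and 1163 RPKM in worms. cey-4 had 568.3, 570.6 and 1151 RPKM in embryos against 1674, 1660 and 1632 RPKM in worms, a difference of -1.03 that was not called (limma adjusted p = 0.055). In none of the 4 genes did embryo and worm libraries overlap. Such a separation was common, with all embryo libraries above in 43.1% and below in 37.3% of all genes tested. The class median was 0.50, or -0.63 with shared-gene centring and -0.92 with RiboMinus embryos.

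In the PAR network, which splits the zygote into anterior and posterior domains, 4 of 17 genes rose and 2 fell, with a median of 0.27 that became -0.86 with shared-gene centring and -0.53 with quantile normalization. The non-muscle myosin light chain mlc-4 rose, with 441.5, 436.7 and 819.7 RPKM in embryos against 93.5, 93.02 and 98.81 RPKM in worms. The atypical protein kinase C gene pkc-3 rose, with 66.1, 66.57 and 70.9 RPKM in embryos against 33.3, 32.1 and 32.03 RPKM in worms. The posterior kinase par-1 fell, with 5.67, 5.74 and 11.3 RPKM in embryos against 24.65, 25.11 and 24.63 RPKM in worms, and the anterior scaffold par-3 fell, with 31.35, 31.23 and 60.11 RPKM in embryos against 90.79, 88.81 and 92.6 RPKM in worms. RiboMinus embryos held more than the worms of both genes that fell, with 34.25 to 36.47 RPKM for par-1 and 149.6 to 173.2 RPKM for par-3.

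Of 18 Notch, Wnt and fate factors, 3 rose and 7 fell, with a median of -0.49. The ligand of the Wnt signal that polarises the endoderm precursor, mom-2, rose, with 370.4, 373 and 662.7 RPKM in embryos against 81.19, 82.63 and 82.4 RPKM in worms. The transcription factor of the mesendoderm skn-1 fell, with 12.1, 12.45 and 51.49 RPKM in embryos against 81.37, 83.59 and 84.78 RPKM in worms, and the kinase gsk-3 fell, with 1.6, 1.94 and 11.4 RPKM in embryos against 40.8, 44.44 and 44.98 RPKM in worms. RiboMinus embryos again held more than the worms of both, with 165.4 to 204.7 RPKM of skn-1 and 100.4 to 168.7 RPKM of gsk-3. The class median with RiboMinus embryos in place of poly(A) embryos was 1.13.

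Eggshell and egg activation genes were divided: 2 of 14 rose and 5 fell, with a median of -0.62 (0.14 with RiboMinus embryos). gna-2, an enzyme of chitin precursor synthesis, rose, with 146.9, 145.2 and 297.6 RPKM in embryos against 28.4, 27.63 and 26.32 RPKM in worms, and the egg activation pseudophosphatase egg-3 rose, with 324.8, 322.9 and 319.2 RPKM in embryos against 141.2, 137.9 and 141.8 RPKM in worms. The chitin synthase chs-1 fell, with 49.04, 48.92 and 29.54 RPKM in embryos against 110.4, 111.8 and 115.9 RPKM in worms. So did egg-1, a sperm-binding surface protein of the oocyte, with 271.6, 274.2 and 132.7 RPKM in embryos against 725.9, 722.5 and 737.2 RPKM in worms, and the vitelline layer protein cbd-1, with 1028, 1026 and 567.9 RPKM in embryos against 1614, 1621 and 1649 RPKM in worms. In the 3 genes that fell, embryo replicate 3 was the lowest library. The other 2 that fell were perm-2 and perm-4, with differences of -10.41 and -10.98.

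Of 12 genes of yolk uptake and lipid droplets, 2 rose and 4 fell, with a median of -0.94. With RiboMinus embryos 5 were called higher and 1 lower, with a median of 0.78. The yolk receptor of the oocyte, rme-2, fell to 268.1, 270.3 and 136.2 RPKM in embryos, against 693.9, 702.3 and 711.8 RPKM in worms. The caveolin gene cav-1 rose, with 179.6, 179.4 and 175.2 RPKM in embryos against 34.01, 37.57 and 37.06 RPKM in worms.

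Germ granule and small RNA factors were mostly not called. P granule genes had 2 of 15 higher and 5 lower (median -0.34), and Argonautes and small RNA factors 8 of 34 higher and 6 lower (median -0.12). With RiboMinus embryos P granule genes had 6 higher and 3 lower (median 0.61), and Argonautes and small RNA factors 15 higher and 2 lower (median 0.9). deps-1, a P granule protein, rose, with 502.1, 506.1 and 331.2 RPKM in embryos against 137.3, 138.7 and 137.6 RPKM in worms, and the helicase gene glh-1 fell, with 17.81, 17.73 and 24.73 RPKM in embryos against 131.6, 133.5 and 134.8 RPKM in worms. The Argonaute csr-1, which binds small RNAs against germline genes, fell, with 14.87, 14.35 and 26.07 RPKM in embryos against 128.4, 133.9 and 133.7 RPKM in worms. Between the piRNA Argonautes, prg-2 fell, with 17.21, 17.53 and 9.22 RPKM in embryos against 206.8, 206.4 and 209 RPKM in worms, whereas prg-1 had 307.7, 307.1 and 208.9 RPKM in embryos against 268, 270.4 and 274.1 RPKM in worms and was not called (-0.10 ± 0.25, limma adjusted p = 0.755). The difference between the prg genes' own differences was not tested, and reads of these similar genes may be shared. mut-2, an RNA-tailing enzyme of the small RNA pathway, rose, with 175.5, 174.7 and 153.8 RPKM in embryos against 33.39, 35.88 and 38.56 RPKM in worms.

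**Figure D3:**
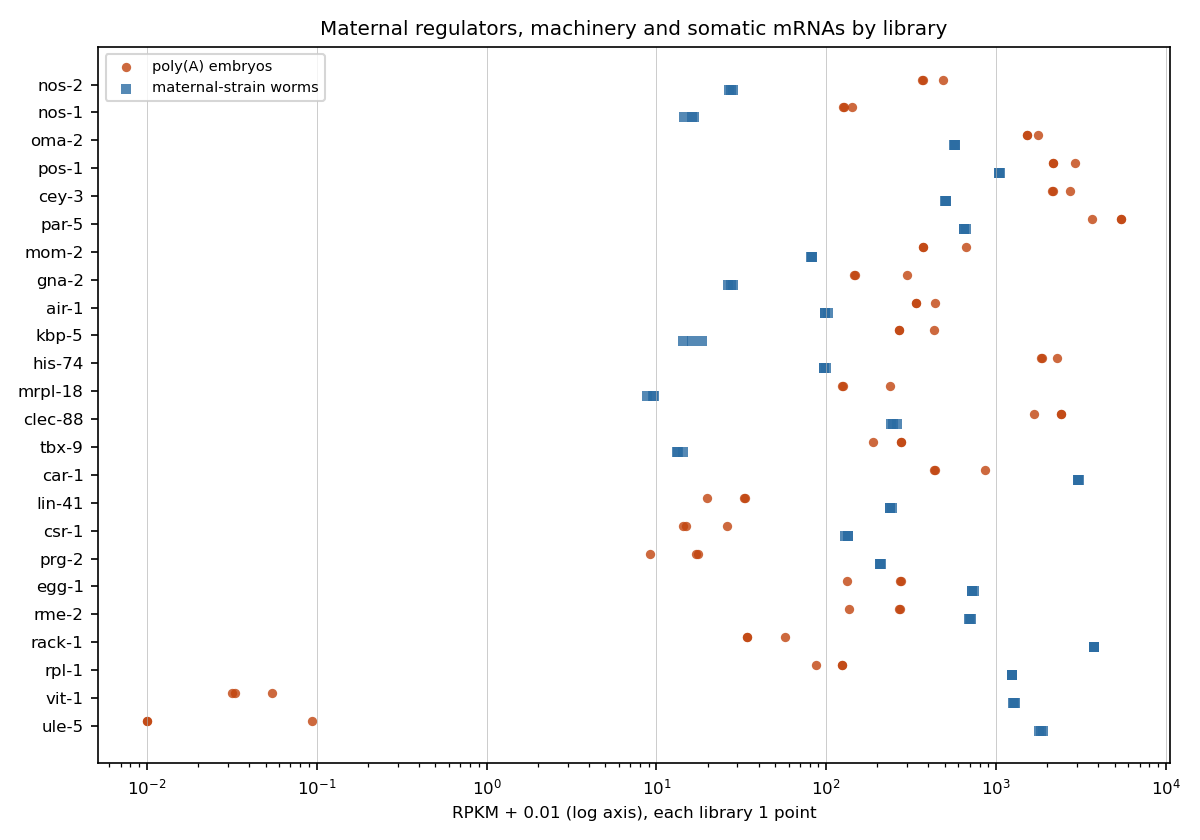
Each point is 1 library, placed by RPKM + 0.01 on a log axis; circles are poly(A) embryos and squares maternal-strain worms, 3 libraries each. Genes from nos-2 to tbx-9 lie higher in every embryo library and those from car-1 to ule-5 lower.

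Of 29 genes of the meiotic chromosome axis and synapsis, 21 rose and 1 fell, with a median of 1.64 (0.51 with shared-gene centring, where 8 were called higher and 1 lower). spo-11, the enzyme that makes meiotic double-strand breaks, had 48.56, 49.73 and 54.23 RPKM in embryos against 2.08, 1.69 and 1.61 RPKM in worms (4.26 ± 0.45, limma adjusted p = 0.000299). dsb-1, its accessory factor, had 304.9, 303.3 and 233.2 RPKM in embryos against 45.78, 43.68 and 44.04 RPKM in worms, and the X chromosome pairing protein gene him-8 had 78.46, 77.03 and 64.4 RPKM in embryos against 22, 21.82 and 22.01 RPKM in worms. The kinase chk-2 was the exception, at 0.64, 0.60 and 1.03 RPKM in embryos against 5.79, 5.51 and 5.40 RPKM in worms. RiboMinus embryos held 15.55 to 18.55 RPKM of chk-2, which was called higher with them.

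Replication genes had 16 of 30 higher and 1 lower, with a median of 1.42 (0.29 with shared-gene centring, where 7 were called higher and 6 lower). The sliding clamp pcn-1 had 1293, 1293 and 2284 RPKM in embryos against 621, 626.3 and 633.1 RPKM in worms, and the single-strand binding protein rpa-2 had 1134, 1134 and 757 RPKM in embryos against 233.2, 232.1 and 235.3 RPKM in worms. The replicative helicase subunit mcm-2 fell, with 33.89, 33.49 and 160.5 RPKM in embryos against 285.9, 280.7 and 283 RPKM in worms. Embryo replicate 3 was again the nearest to the worms, and RiboMinus embryos held 379.5 to 507 RPKM.

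At the kinetochore 14 of 26 genes rose and 2 fell, with a median of 1.13 that was -0.0 with shared-gene centring, where 6 were called higher and 7 lower. The 5 kbp genes, named for binding the kinetochore scaffold KNL-1, all rose, and kbp-5 had 267.9, 269.1 and 433.4 RPKM in embryos against 16.25, 14.28 and 18.45 RPKM in worms. bub-3, of the spindle checkpoint, had 347.4, 343.1 and 357.1 RPKM in embryos against 138.8, 136.4 and 137.3 RPKM in worms. klp-7, a microtubule depolymerising kinesin, fell, with 35.52, 35.16 and 38.51 RPKM in embryos against 165, 162.5 and 164.5 RPKM in worms.

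Of 28 cyclins, cyclin-dependent kinases and mitotic kinases, 9 rose and 2 fell, with a median of 0.56 that became -0.57 with shared-gene centring. Both Aurora kinases rose: air-1 had 336.5, 338.1 and 437.2 RPKM in embryos against 102.5, 98.37 and 98.57 RPKM in worms, and air-2 had 128.2, 129 and 160.8 RPKM in embryos against 41.48, 40.65 and 40.65 RPKM in worms. The phosphatase gene cdc-25.3 rose most, with 339.2, 342.1 and 169.8 RPKM in embryos against 13.93, 14.53 and 14.07 RPKM in worms. plk-3, a polo-like kinase, fell, with 47.38, 48.25 and 19.73 RPKM in embryos against 155.6, 157.4 and 158.3 RPKM in worms, while RiboMinus embryos had 222.2 to 267.4 RPKM.

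The 15 centriole and centrosome genes had 3 rises and 3 falls, with a median of 0.45 that was -0.69 with shared-gene centring and -0.46 with quantile normalization. sas-6, a core centriole protein, rose, with 129.7, 130 and 99.3 RPKM in embryos against 10.72, 11.21 and 11.3 RPKM in worms. spd-2, which recruits centriole and centrosome material, fell, with 18.52, 18.23 and 54.6 RPKM in embryos against 112.3, 111.8 and 113.3 RPKM in worms. Nuclear pore genes had 5 of 26 higher and 1 lower, with a median of 0.03 that was -1.1 with shared-gene centring, -0.77 with quantile normalization and -0.18 with libraries scaled to the same sum. Their median was -0.47 in replicates 1 and 2 and 0.52 in replicate 3. RiboMinus embryos gave 13 higher and 0 lower, with a median of 1.04.

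Of 20 histone variants and germline chromatin factors, 8 rose and none was called lower by limma, with a median of 0.54 (-0.60 with shared-gene centring, where 8 were called lower, and 5 were lower without embryo replicate 3). The histone H3 variant gene his-74 had 1840, 1855 and 2280 RPKM in embryos against 100.1, 97.62 and 97.15 RPKM in worms (4.37 ± 0.50, limma adjusted p = 0.000425). The H2A variant gene htz-1 had 1146, 1137 and 2283 RPKM in embryos against 191.8, 193.7 and 191 RPKM in worms, and the H3 variant gene his-72 had 1521, 1524 and 1286 RPKM in embryos against 349.4, 350.2 and 336.1 RPKM in worms.

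Replication-dependent histones, whose mRNAs end without a poly(A) tail in animals, were scarce in poly(A) libraries of both kinds. They held 0.0863, 0.0864 and 0.0987% of the summed RPKM in embryos, and 4.0, 4.07 and 7.45% of it in RiboMinus embryos. Of 65 genes listed, 21 reached a mean of 1 RPKM in poly(A) embryos and 11 in worms, with median levels of 0.114 and 0.0236 RPKM. The filter on low values also counts RiboMinus libraries, so many of the 60 genes tested were near 0 in both groups compared. Of these 60, 12 rose and 0 fell, and worm levels this low leave little room for a fall. The median difference was 0.16, or -0.97 with shared-gene centring, where 25 were called lower. The H3 gene his-59 had 93.28, 94.68 and 91.78 RPKM in poly(A) embryos against 5.53, 5.75 and 5.98 RPKM in worms, while RiboMinus embryos had 3680, 3723 and 9172 RPKM. Near-identical copies make the values of single members of this family uncertain.

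The clearest contrast lay between the 2 kinds of ribosome. Of 78 cytosolic ribosomal protein genes, 71 fell and 0 rose, with a median of -3.02, and the median was at or below -2.92 under each of the 4 scalings tried, where at most 1 gene was called higher. They held 2.74, 2.74 and 1.97% of the summed RPKM in embryos, against 24.6, 24.6 and 24.4% in worms. rpl-1, of the large subunit, had 124.2, 123.2 and 87.32 RPKM in embryos against 1247, 1246 and 1238 RPKM in worms (-3.57 ± 0.31, limma adjusted p = 0.000136). The ribosome-bound scaffold rack-1 fell most, with 33.94, 34.07 and 57.55 RPKM in embryos against 3772, 3769 and 3768 RPKM in worms. RiboMinus embryos held a share of 0.984 to 1.09%, so the low share was not limited to poly(A) libraries.

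Mitochondrial ribosomal proteins went the other way, with 46 of 63 genes higher and 1 lower. Their median was 1.81, or 0.67 with shared-gene centring, where 19 were called higher and 5 lower. RiboMinus embryos gave 28 higher and 1 lower, with a median of 0.97. Their share of the summed RPKM was 1.08, 1.07 and 0.798% in embryos, against 0.254 to 0.260% in worms. mrpl-18 rose most (4.05 ± 0.56, limma adjusted p = 0.000933), and mrpl-34 had 822.8, 828.3 and 367.2 RPKM in embryos against 35.96, 37.82 and 36.69 RPKM in worms. The lone fall in poly(A) embryos was mrpl-45, with 21.37, 21.55 and 14.24 RPKM in embryos against 35.7, 36.45 and 36.37 RPKM in worms. RiboMinus embryos held 83.68 to 98.07 RPKM of mrpl-45, which was called higher with them.

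Other parts of the translation apparatus held rises near the share over all genes tested, of which 30.9% rose and 24.4% fell. Of 38 translation factors 11 rose (28.9%) and 6 fell (15.8%). Their median of 0.09 turned to -1.04 with shared-gene centring, -0.51 with quantile normalization and -0.12 with libraries scaled to the same sum. The cap-binding protein gene ife-2 rose by 3.28 ± 0.31 (limma adjusted p = 0.000185). The elongation factor eef-2, which moves the ribosome along the message, fell, with 8.03, 7.78 and 54.6 RPKM in embryos against 407.6, 411.5 and 413.6 RPKM in worms. Aminoacyl-tRNA synthetases had 11 of 35 higher (31.4%) and 6 lower (17.1%), with a median of 0.63 (-0.50 with shared-gene centring and -0.15 with quantile normalization). sars-1, for serine, rose, with 151.2, 150.7 and 77.52 RPKM in embryos against 20.63, 20.51 and 21.5 RPKM in worms, and ears-1, for glutamate, fell, with 4.35, 4.41 and 10 RPKM in embryos against 85.03, 83.86 and 86.13 RPKM in worms.

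Splicing factors rose in 25 of 44 genes and fell in 3, with a median of 1.67 (0.54 with shared-gene centring, where 10 were called higher and 9 lower). RiboMinus embryos gave 14 higher and 2 lower, with a median of 0.46. Among the Sm core genes of the spliceosome, snr-5 had 2548, 2539 and 845.6 RPKM in embryos against 184.3, 191 and 193.5 RPKM in worms, and snr-6 had 3929, 3927 and 1094 RPKM in embryos against 497.5, 490.4 and 495.2 RPKM in worms. prp-8, the large protein at the spliceosome's active site, fell, with 7.65, 7.65 and 34.7 RPKM in embryos against 62.1, 62.96 and 64.29 RPKM in worms.

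The proteasome, which clears maternal proteins at the egg-to-embryo transition, had 20 of 32 genes higher and 1 lower. Its median was 1.11 (-0.02 with shared-gene centring, where 5 were called higher and 4 lower). RiboMinus embryos gave 7 higher and 1 lower, with a median of 0.7. pas-4, of the core particle, had 1643, 1643 and 1012 RPKM in embryos against 261.8, 252.3 and 256 RPKM in worms. rpn-12, of the regulatory particle, had 294, 296.5 and 528.9 RPKM in embryos against 38.6, 40.25 and 41.64 RPKM in worms. The 1 that fell, rpn-6.2, was at 65.3 to 108 RPKM in sperm libraries, and had 0.92, 0.72 and 1.02 RPKM in embryos against 5.85, 5.26 and 5.21 RPKM in worms.

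Autophagy genes, some of which remove the father's mitochondria from the zygote, rose in 15 of 25 cases and fell in 1, with a median of 1.23 (0.09 with shared-gene centring, where 7 were called higher and 7 lower). allo-1, the adaptor that marks paternal organelles, had 261.7, 260 and 180.2 RPKM in embryos against 54.09, 51.81 and 53.73 RPKM in worms. lgg-2, a homologue of the yeast autophagosome protein Atg8, had 75.85, 74.6 and 192.5 RPKM in embryos against 22.65, 24.9 and 25.46 RPKM in worms. Its relative lgg-1 had 750.3, 748 and 726.7 RPKM in embryos against 454, 450.6 and 461.2 RPKM in worms, a difference of 0.69 under the size asked of a call.

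Respiratory chain and ATP synthase genes rose in 24 of 48 cases and fell in 5, with a median of 0.88 (-0.26 with shared-gene centring, where 7 were called higher and 14 lower, and -0.06 with RiboMinus embryos). The class was matched by gene symbol and takes in genes of other function, among them nfu-1, named for an iron-sulphur cluster protein. cyc-2.1, cytochrome c, fell, with 564.5, 569.1 and 439.6 RPKM in embryos against 2384, 2384 and 2323 RPKM in worms, and cox-17, a copper chaperone of cytochrome oxidase, rose by 2.94. The proton pump V-ATPase had 4 of 18 genes higher and 4 lower, with a median of 0.32 that was -0.81 with shared-gene centring and -0.46 with quantile normalization. Its intestinal subunit gene vha-6 was at 0.38, 0.21 and 0.80 RPKM in embryos against 98.65, 94.02 and 99.28 RPKM in worms. Chaperonin and heat shock chaperone genes had 6 of 21 higher and 4 lower, with a median of 0.02 that was -1.11 with shared-gene centring, -0.74 with quantile normalization and -0.19 with libraries scaled to the same sum. The prefoldin gene pfd-4 rose, with 151.2, 152.6 and 172.1 RPKM in embryos against 10.3, 14.01 and 12.7 RPKM in worms.

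Of 13 tubulins 0 rose and 6 fell by limma, with a median of -0.97. Quantile normalization gave 1 higher and 4 lower, with a median of -0.46. Shared-gene centring lowers all differences, so it could not add a rise. The largest fall was that of tba-4, an alpha-tubulin, with 0.32, 0.22 and 0.13 RPKM in embryos against 78.1, 75.65 and 78.99 RPKM in worms. The alpha-tubulin gene tba-1 had 1703, 1707 and 1617 RPKM in embryos against 1740, 1744 and 1757 RPKM in worms and was not called (-0.08 ± 0.43, limma adjusted p = 0.901).

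Yolk protein and intestine messages were low in embryos. All 6 vitellogenins, the yolk proteins made by the intestine, fell, with a median of -9.05. vit-1 had 0.02, 0.04 and 0.02 RPKM in embryos against 1268, 1266 and 1285 RPKM in worms. Of 69 intestine genes tested, of 91 listed, 61 fell and 1 rose, with a median of -4.20. The cysteine protease cpr-9 had 0.62, 0.50 and 0.16 RPKM in embryos against 1855, 1838 and 1893 RPKM in worms, and the saposin-like gene spp-5 had 14.6, 14.4 and 7.30 RPKM in embryos against 3378, 3359 and 3467 RPKM in worms. dod-18 was the intestine gene that rose, with 9.09, 9.06 and 35.1 RPKM in embryos against 0.98, 1.64 and 1.54 RPKM in worms.

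Muscle genes fell in 28 of 42 cases and rose in 1, with a median of -2.53. The troponin gene tnt-2 had 0.09, 0.05 and 0.36 RPKM in embryos against 151.7, 156.8 and 154.9 RPKM in worms. The actin act-2 had 880.4, 881.9 and 1153 RPKM in embryos against 1331, 1337 and 1372 RPKM in worms and was not called, and act-3, the rise, had 37.89, 37.09 and 106.4 RPKM in embryos against 23.03, 28 and 20.5 RPKM in worms. The actin genes are near-identical, so reads may have been split among them.

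Cuticle collagens, tested in 77 of 178 cases, fell in 45 and rose in 12, with a median of -1.84. dpy-14 was the collagen with the largest rise, with 75.22, 75.77 and 120.9 RPKM in embryos against 12.61, 13.11 and 13.01 RPKM in worms. The uterine fluid gene ule-5 had 0.08, 0 and 0 RPKM in embryos, against 1792, 1838 and 1887 RPKM in worms, among the 10 largest falls of all genes. RiboMinus embryos also listed ule-5 at 0 in all 3 libraries.

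Neuronal genes fell in 11 of 23 cases and rose in 3, with a median of -0.98. The neuropeptide-processing enzyme gene egl-3 had 0.44, 0.46 and 1.08 RPKM in embryos against 27.08, 27.48 and 27.55 RPKM in worms. tdc-1, tyrosine decarboxylase, was among the 3 that rose, with 127.2, 126.9 and 159.3 RPKM in embryos against 64.09, 62.39 and 64.99 RPKM in worms. Neuropeptides and insulins fell in 69 of 105 cases and rose in 3, with a median of -1.46. One that rose was nlp-36, with 1176, 1188 and 381.9 RPKM in embryos against 146, 150.9 and 153 RPKM in worms, and another was the insulin-like gene ins-34, with 55.09, 54.25 and 26.08 RPKM in embryos against 3.98, 4.13 and 4.11 RPKM in worms.

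Of 117 C-type lectins tested, 56 fell and 5 rose, with a median of -0.64, yet the class held 1.92, 1.91 and 1.07% of the summed RPKM in embryos, against 1.05 to 1.08% in worms. The share in embryos came from few genes. clec-87 had 12940, 12910 and 5544 RPKM in embryos against 3921, 3932 and 4047 RPKM in worms, clec-88 had 2407, 2404 and 1675 RPKM in embryos against 247.7, 241.6 and 259.6 RPKM in worms, and clec-91 had 1620, 1628 and 1138 RPKM in embryos against 437.8, 424.6 and 451.3 RPKM in worms. clec-87 was called by a narrow margin (1.09 ± 0.39, limma adjusted p = 0.0482).

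Detoxification enzymes, cytochrome P450s, UDP-glucuronosyl transferases and glutathione S-transferases, fell in 40 of 70 cases and rose in 13, with a median of -1.17. gst-7 rose, with 1061, 1062 and 1012 RPKM in embryos against 125, 134.2 and 130.1 RPKM in worms, and gst-10 fell, with 1.53, 1.70 and 1.15 RPKM in embryos against 71.61, 66.75 and 69.1 RPKM in worms.

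Of 97 F-box A, MATH and BTB genes tested, of 433 listed, 55 rose and 15 fell, with a median of 1.38 (0.25 with shared-gene centring, where 34 were called higher and 29 lower). These proteins recruit substrates to ubiquitin ligases. RiboMinus embryos gave 44 higher and 13 lower, with a median of 0.86. fbxa-215 had 323, 318.8 and 367.8 RPKM in embryos against 21.85, 20 and 22.31 RPKM in worms, and btb-19 had 163.2, 160.3 and 148.8 RPKM in embryos against 7.36, 7.46 and 6.87 RPKM in worms. Of the 15 in this class that fell, bath-40 fell most, with 23.43, 23.92 and 88.49 RPKM in embryos against 269.2, 269.4 and 269.8 RPKM in worms. Only genes that passed the filter on low values enter these counts, so they do not describe the families as a whole.

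Nuclear hormone receptors had 27 of 85 higher and 14 lower, or 31.8% and 16.5%, against 30.9% and 24.4% of all genes tested. Their median was 0.22, or -0.92 with shared-gene centring. nhr-12 rose, with 21.67, 21.2 and 27.04 RPKM in embryos against 1.28, 1.20 and 1.29 RPKM in worms, and nhr-114 fell, with 0.40, 0.42 and 0.54 RPKM in embryos against 31.9, 32.51 and 33.95 RPKM in worms. Of 1165 chemoreceptor genes only 13 were tested, of which 8 rose and 3 fell, or 3 and 3 with RiboMinus embryos. srx-44 was the most abundant of them, with 306.1, 309.4 and 381.1 RPKM in embryos against 55.53, 56.46 and 54.78 RPKM in worms.

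Genes known for early zygotic expression were in part already present. Of 18 tested, of 29 listed, 8 rose and 1 fell, with a median of 0.52 (-0.61 with shared-gene centring). The T-box gene tbx-9 had 275.1, 274.6 and 189.5 RPKM in embryos against 13.32, 13.29 and 14.43 RPKM in worms (3.95 ± 0.27, limma adjusted p = 4.65e-05), and lsy-27 had 76.46, 75.18 and 111.5 RPKM in embryos against 13.26, 13.26 and 14.31 RPKM in worms. Whether these messages were loaded by the mother or made in the zygote cannot be told apart here.

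Major sperm protein messages were low in both groups. None of the 30 major sperm protein genes reached a mean of 1 RPKM in embryos, and of 28 tested 12 fell and 0 rose. msp-53, the most abundant of them in worms, had 0.02, 0.02 and 0.13 RPKM in embryos against 3.41, 3.64 and 3.21 RPKM in worms, and 2454 to 6913 RPKM in the sperm libraries. Of 35 other sperm function genes 1 rose and 4 fell, and some of them were well above the floor in both groups. zipt-7.1, a zinc transporter of sperm activation, had 167, 164.5 and 168.5 RPKM in embryos against 112.9, 111.9 and 115.4 RPKM in worms and was not called (0.55 ± 0.17, limma adjusted p = 0.0283, under the size asked of a call). The rise was spe-6, a kinase of sperm development, with 4.39, 4.34 and 5.67 RPKM in embryos against 0.97, 0.58 and 0.97 RPKM in worms.

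Genes at 10 RPKM or more in embryos and under 1 in worms numbered 39, all of them called higher, which their choice by level favours. They were short, with a median of 726 nucleotides, and 35 of the 39 belonged to none of the classes. Of the 39, 5 were at 10 RPKM or more in both the high-purity and the fog-2 sperm library. Among the other 5206 genes at 10 RPKM or more in embryos, 79.2% were. The 2 sets differ in worm level by their choice and were not matched for embryo level, whose part was not tested. icmt-1, named for a methyltransferase of prenylated proteins, was listed at 0, 0 and 0.03 RPKM in worms and had 12.85, 12.64 and 46.93 RPKM in embryos. It was at 104.6 to 171.9 RPKM in the sperm libraries. fbxa-83 had 6.44, 5.66 and 21.6 RPKM in embryos against 0.06, 0.09 and 0.12 RPKM in worms.

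**Figure D4:**
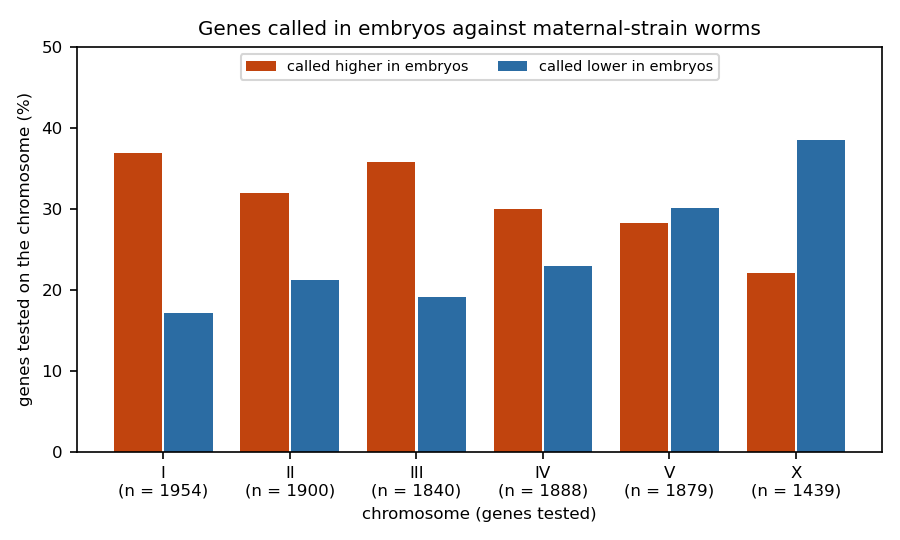
Bars give the percentage of genes tested on each chromosome that were called higher (left bar) and lower (right bar) in poly(A) embryos against maternal-strain worms; genes tested are counted under each chromosome. X has the fewest rises (22.1%) and the most falls (38.5%), and I has the most rises (36.9%).

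The chromosomes differed in their share of calls. On X, 22.1% of 1439 genes tested rose and 38.5% fell, with a median of -0.49. Chromosomes I and III stood at the other end, with 36.9% and 35.8% of genes higher, 17.1% and 19.1% lower, and medians of 0.38 and 0.41. Chromosome V, with 28.2% higher and 30.1% lower, was the autosome nearest to X. X-linked genes held 4.59% of the mean summed RPKM in embryos and 7.67% in worms. The gene positions are by chromosome name in RefSeq's WBcel235 annotation, and no test of a chromosome against the others was run.

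**Figure D5:**
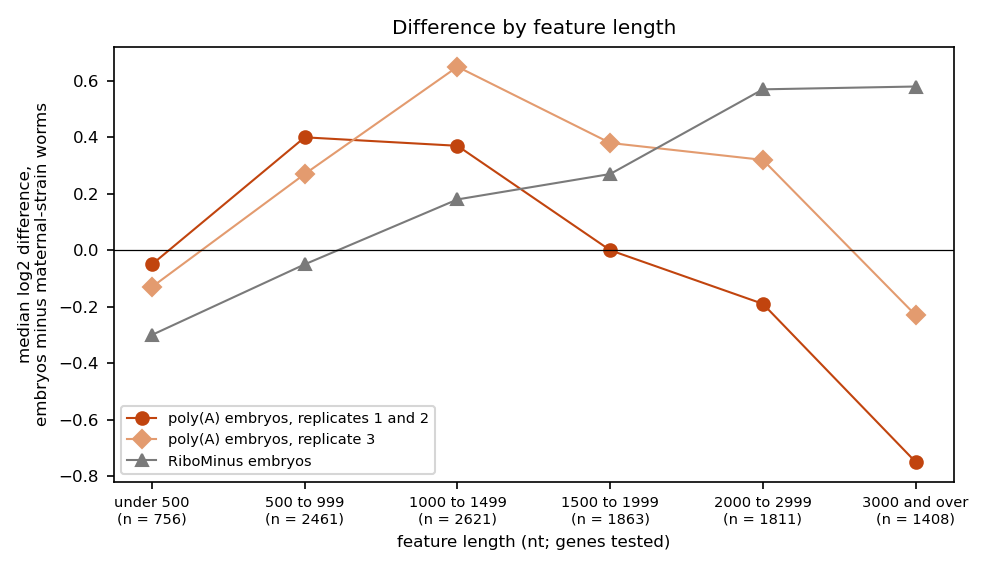
Lines give the median log2 difference of RPKM + 1 (embryos minus maternal-strain worms) of genes tested in 6 bins of feature length; circles are poly(A) embryo replicates 1 and 2, diamonds poly(A) embryo replicate 3, and triangles RiboMinus embryos. Above 3000 nucleotides poly(A) embryos lie below 0 (-0.75 and -0.23) and RiboMinus embryos above it (0.58).

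Calls moved with feature length and with the kind of library. Features of 3000 nucleotides and over were called higher in 8.31% and lower in 31.7% of 1408 genes, with medians of -0.75 in the first embryo sample and -0.23 in replicate 3. Those of at least 1000 and under 1500 nucleotides were called higher in 41.1% and lower in 20.8% of 2621 genes. With RiboMinus embryos in place of poly(A) embryos the longest bin had 33.4% higher and 15.9% lower, with a median of 0.58. Genes that rose had a median length of 1187 nucleotides, against 1435.5 for those that fell and 1661 for those not called. Mitochondrial ribosomal proteins, with many rises in poly(A) embryos, had a median length of 778 nucleotides. Nuclear pore genes, with few in poly(A) embryos, had 2539 nucleotides, and cytosolic ribosomal proteins, with none, 649 nucleotides. The part of length in the class results was not tested.

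The RiboMinus comparison uses the same worm libraries, so the values are given side by side. hsp-60, a mitochondrial chaperonin, fell in poly(A) embryos, with 5.35, 5.23 and 4.96 RPKM in poly(A) embryos against 151.8, 148.7 and 148 RPKM in worms, while RiboMinus embryos had 301.7 to 366.7 RPKM. prp-8 had 212.3 to 226.4 RPKM in RiboMinus embryos, above its values in both poly(A) embryos and worms. The part of poly(A) tail length was not tested.

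The embryo samples also differed between themselves. Of 5245 genes at 10 RPKM or more in embryos, 389 were at least 2-fold higher in the sample of replicates 1 and 2 and 911 in replicate 3, together 24.8%, against 0.199% of 5017 genes in worms and 14.4% of 5379 in RiboMinus embryos. Among the genes higher in replicate 3, xpo-1, a nuclear export receptor, had 4.91, 5.09 and 56.2 RPKM and imb-1, an import receptor, had 4.77, 4.85 and 40.2 RPKM in embryos, against 56.99 to 58.58 RPKM of xpo-1 and 29.7 to 30.32 RPKM of imb-1 in worms. The gene Y7A5A.6 was at 132.3, 139.1 and 0.49 RPKM in embryos and 1026, 1236 and 0.35 RPKM in worms, a split between replicates 1 and 2 and replicate 3 that both groups share, so its group values rest on which replicates are read.

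Small RNAs antisense to exons were set beside the calls, with 1 library of each kind and hence no test. In hybrid embryos the median was 26.5 ppm of the library's antisense exon signal for genes that rose, 1.0 for genes that fell and 12.7 for genes not called. Oocytes had medians of 22.9 ppm, 0.752 ppm and 12.2 ppm in the same order, and maternal-strain worms had medians of 22.3 ppm, 2.98 ppm and 14.9 ppm. A level of at least 10 ppm was found for 75.1% of the genes that rose and 27.2% of those that fell in hybrid embryos. The mRNA level in embryos differs between these gene sets by their choice, and its part in the antisense level was not tested.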

How the data were processed

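Values are RPKM per gene as deposited by the authors, from poly(A) libraries that were fragmented and primed with random hexamers, per the labels' protocols. The submitters' processing notes name BWA. The genome build is not given in the sources used here. For small RNAs, the antisense exon signal deposited by the authors was divided by its library sum, and 8 columns of that exon table belong to no sample here and were not used. Members, gene lists and classes were chosen with earlier results of these data known. The classes were matched by gene symbol, older symbols included.

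Replicates 1 and 2 were averaged (mean dispersion 1.0 in embryos and 1.07 in worms). Values were tested as log2(RPKM + 1) with limma 3.58.1 in R 4.3.3 on genes at 1 RPKM or more in at least 3 of 12 libraries of 4 groups, which share 1 estimate of the spread. A fold change on this scale understates the change of low genes. The procedure was tested on simulated data. Nothing states that replicates came from separate cultures beyond a general note of at least 2 biological replicates.

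Genes were named by rule as the 10 largest rises and 10 largest falls, the 15 most abundant in embryos, and in each class the 3 most abundant and the called members of highest and lowest difference. A selection of these is described, and genes outside the rule were chosen after their values were seen. Alternatives covered scaling, pseudocount, filter, samples left out, a replicate block, group weights and RiboMinus embryos. Reads carry no strand, so antisense and overlapping genes cannot be told apart.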

Additional observations from a re-analysis of the deposited data

How the results depend on the processing

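With shared-gene centring, chosen after seeing the data, 1456 genes were called higher and 5653 lower, since it lowers all differences, and pkc-3 (-0.07), clec-87 (-0.05), lgg-1 (-0.44), zipt-7.1 (-0.58) and oma-1 (-0.88) changed sign. A pseudocount of 5 left 1382 genes called lower, since it shrinks the differences of low genes. Leaving out 1 library at a time gave 2870 to 3418 genes higher and 2474 to 3030 lower. Over the same settings oma-1 ranged between -0.03 and 0.27, prg-1 between -0.1 and 0.18 and Y7A5A.6 between -6.31 and 1.8. Without worm replicates 1 and 2 Y7A5A.6 was at 3.4, and without embryo replicates 1 and 2 imb-1 was at 0.4. tba-1 was at 0.03 with median centring and 0.66 with quantile normalization, where oma-1 was at -0.48, zipt-7.1 at -0.39 and rab-3 at 0.24.

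With RiboMinus embryos in place of poly(A) embryos these named genes changed sign, and the cause was not tested. Differences became positive for mex-1 (0.03), par-1 (0.52), par-3 (0.81), skn-1 (1.11), gsk-3 (1.52), chs-1 (0.81), cbd-1 (0.44), prg-1 (0.1), chk-2 (1.45), mcm-2 (0.63), plk-3 (0.67), spd-2 (0.57), mrpl-45 (1.25), prp-8 (1.76), hsp-60 (1.18), xpo-1 (1.44), imb-1 (2.02) and Y7A5A.6 (0.53). They became negative for F23A7.4 (-1.27), mina-1 (-0.17), pas-4 (-0.06), lgg-1 (-0.66) and srx-44 (-0.65). Some classes had medians that shared-gene centring made negative. With RiboMinus embryos their medians included 1.24 for cyclins and mitotic kinases, 1.43 for histone variants, 0.91 for the PAR network, 0.89 for chaperones and 0.57 for centrioles. Those of Y-box proteins (-0.92) and the respiratory chain (-0.06) were negative there.

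With only the 2 groups compared in the fit, 3117 genes were called higher and 2541 lower. Of 128 genes named here, 15 lost their call in that fit. The replicate block gave 3459 genes higher and 2686 lower. Same-numbered embryo and worm samples had a correlation of 0.086 of their deviations, and with 2 pairs the numbers were not taken to pair the samples. Y7A5A.6 split alike by number in both groups.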
